A study of Mus musculus with 4 samples.

Results

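The granins and the enzymes that process neuropeptide precursors were described in RNA of captured ribosomes and of whole tissue from mouse prefrontal cortex. The 10 genes were taken by symbol from the deposited count tables, which held 24100 genes, and all 10 were found. They are the granins Chga, Chgb, Scg2, Scg3 and Vgf, the chaperone Scg5, the convertases Pcsk1 and Pcsk2, and the trimming and amidating enzymes Cpe and Pam. All 10 passed the filter on low counts, which left 14636 genes to be tested.

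The animals of both groups were untreated adult males of the line Crh-IRES-Cre, in which the Crh locus, encoding the stress peptide corticotropin-releasing hormone, also directs synthesis of Cre recombinase. Translating ribosome affinity purification (TRAP) pulls ribosomes tagged with EGFP out of a tissue homogenate with an antibody, together with the messenger RNA they are reading. The 4 libraries were 1 Input, the RNA of the homogenate before capture, and 3 immunopurified (IP) libraries, each from 5 pooled males. The line or virus that supplied the tag was not given in the sources used here. It is therefore not known whether cells in which the Crh locus was active only in the past were tagged. Nothing stated whether the Input and an IP came from the same animals or the IP libraries from separate ones, so p-values reflect the spread among these libraries alone, part of which may be technical.

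Neuropeptides are cut from larger precursors inside dense-core vesicles, the storage organelles of the regulated secretory pathway. Granins are acidic proteins that bind calcium and aggregate in the Golgi apparatus, help to form these vesicles, and are themselves cut into peptides. Prohormone convertases cut the precursor at pairs of basic residues, carboxypeptidase E removes the basic residues left at the end, and the enzyme PAM turns an end glycine into the amide that many peptides need for activity. In the cortex, peptides of this kind are best known from GABAergic interneurons, while the granins themselves are made widely in neurons.

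The promoters of several granin and convertase genes are textbook examples of the cAMP response element (CRE), the site of the activity-regulated factor CREB, so the members were searched for its palindrome TGACGTCA. Windows of 300 bases, from 250 before to 50 after the RefSeq start (GRCm38.p6), were matched for 8 members, and none was matched for Cpe and Vgf. The palindrome was in 3 of the 8 genes, with its first base 68 bases before the RefSeq start in Scg2, 72 in Chgb and 78 in Pcsk1. Of all 32851 windows of that length, counted as windows and not as genes, 1.79% held it. The search was prompted by known examples, so this contrast is no independent result. The 30 bases around each of the 3 are shown, and the capitals mark the palindrome. A link between the element and the values in IP was not tested.
Scg2, chr1:79440076-79440105, minus strand: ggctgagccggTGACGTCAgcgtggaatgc
Chgb, chr2:132781559-132781588, plus strand: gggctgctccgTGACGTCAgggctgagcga
Pcsk1, chr13:75089768-75089797, plus strand: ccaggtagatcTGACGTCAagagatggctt
In the GENCODE M21 annotation of the same build, the stretches of Scg2 and Chgb lie wholly within annotated exons (30 of 30 bases). Their palindromes begin 26 and 292 bases after the GENCODE start of the gene, so the position relative to the start depends on the annotation. The stretch of Pcsk1 lies upstream of the gene (0 of 30), its palindrome beginning 47 bases before the GENCODE start. The shorter core TGACG, which the palindrome contains, was found on either strand in 7 of the 8 members, all but Pam, and in 20.8% of all windows. TATAAA was in 1 of the 8, Chga, after its start, and in 13.6% of all windows. Such matches describe letters only and show no binding.

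Depth was 14474529 counts for the Input and between 10031072 and 23548375 for IP, and 1 count was worth 0.0436 to 0.107 CPM (read counts normalised to the TMM-scaled size of each library, the unit of all levels below). Crh, the gene that drives Cre, measured 1.32 CPM in Input RNA, against 501, 174 and 193 CPM in IP 1, 2 and 3. In bulk RNA, fewer cells of a type and less RNA per cell cannot be told apart. Marker lists were chosen with earlier results of these data known, so their counts describe and give no independent support. Of all genes tested, 19.7% lay above the Input in every IP library and 24.1% below it in every one. All 7 markers of GABAergic neurons lay above the Input in every IP library (summed level 787 CPM against 3704 to 4731 in IP). So did 8 of 8 markers of interneurons of the Vip class and the caudal ganglionic eminence (131 against 4485 to 7198). For the Sst and Pvalb classes it was 2 of 7, Sst and Elfn1 (725 against 1109 to 1397). The other 5 had IP libraries on both sides of the Input, and the median log2 fold of this list was -0.18. Of excitatory neuron markers 7 of 10 were below the Input throughout IP (5339 against 3387 to 6340). Camk2a, the largest part of that sum in every library, was at 2902 CPM in the Input against 2590, 4976 and 4160 in IP. Of astrocyte markers 8 of 9 were below the Input throughout IP (2708 against 1661 to 2832). The largest part of that sum was Slc1a2 (2122 CPM in the Input against 1380, 2457 and 1546 in IP). Of oligodendrocyte lineage markers 4 of 9 were below the Input throughout IP (736 against 372 to 583), and 3 of 9 were above it (Mag, Pdgfra and Cspg4). Of microglial markers 7 of 8 were below it (86.2 against 22.8 to 36.6). Aif1 and Tmem119 were at 0 in IP 2, and C1qa at 0 in IP 1 and 2. Of endothelial and mural markers 10 of 11 were above the Input (102 against 273 to 802). Slc17a7, which defines excitatory neurons, was at 633 CPM in the Input and stayed between 201 and 403 CPM in IP.

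Among the members, 1 of 10 rose in IP, Scg2, and 0 fell (edgeR's quasi-likelihood test, Benjamini-Hochberg over all genes tested, threshold 0.05). Among all genes tested 0.41% of genes were called higher and 0.0478% lower. Without adjustment 2 of 10 were higher, Scg2 and Pam, against 3.2% of all genes, and 0 were lower, against 1.23%. In TMM-scaled CPM all 3 IP libraries lay above the Input in 4 of the 10 (Scg2, Vgf, Scg5, Pam), against 19.7% of all genes. In 1 of 10 all 3 lay below it (Chgb), against 24.1%. The other 5 had IP libraries on both sides. By library totals without TMM, IP 2 was below the Input for Scg5, and all 3 IP libraries were below it for Pcsk2. The median log2 fold was 0.54 over the members and 0.083 over all genes tested. DESeq2 also called 1 member higher (1.15% of all genes) and 0 lower (0.0888%). Limma-voom called 0 higher (0.253% of all genes) and 0 lower (0.0957%), with Scg2 at an adjusted p of 0.054.

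**Figure D1:**
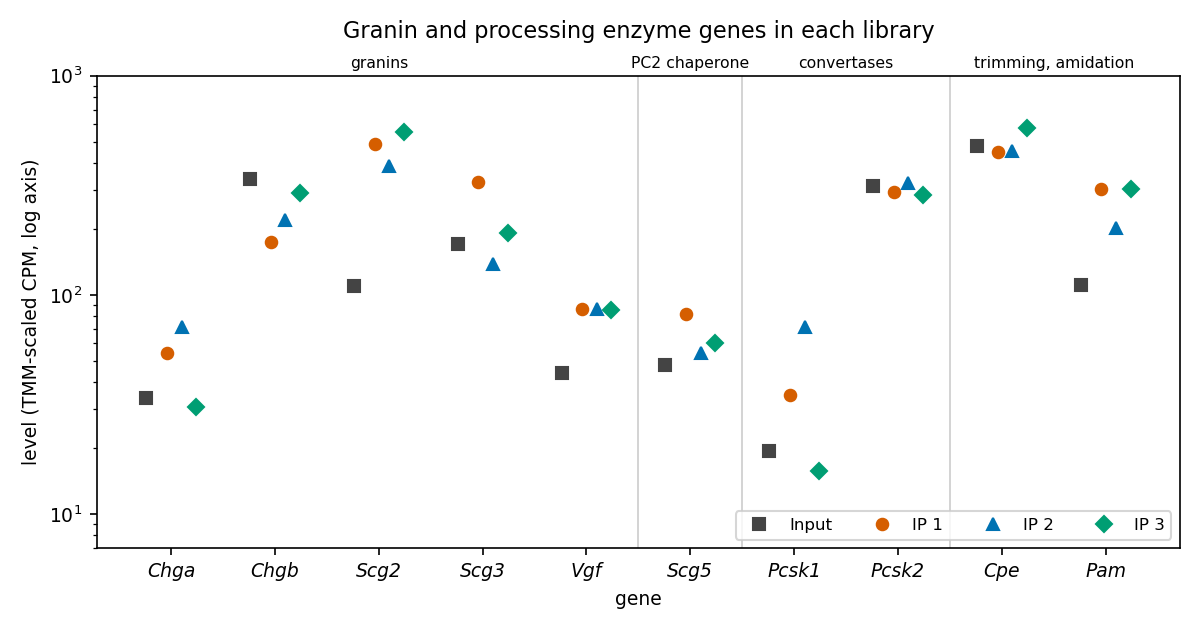
Level of each of the 10 genes in each library, as TMM-scaled CPM on a log axis, with a square for the Input and a circle, triangle and diamond for IP 1, 2 and 3. The IP libraries stand apart from the Input for Scg2 (387 to 557 against 110 CPM), while for Pcsk2 and Cpe the Input lies among them.

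Scg2 encodes secretogranin II, the granin from which the peptide secretoneurin is cut (Entrez 20254, chromosome 1, 79434669 to 79440120, GRCm38, minus strand). Its level was 110 CPM in Input RNA, against 488, 387 and 557 CPM in IP 1, 2 and 3. All 3 IP libraries lay well above the Input, at a mean of 477 ± 85.3 CPM (SD, n = 3), 4.33 times the Input. The log2 fold was 2.12 ± 0.45 (SE, adjusted p = 0.0338), with a 95% interval of 1.18 to 3.05. Among 11 alternative settings its log2 fold ran from 1.84 to 2.24 and the adjusted p from 0.000106 to 0.087. The call ended under 5 of them, among them leaving out IP 3 (adjusted p = 0.0543), upper-quartile factors (0.0774) and library totals alone (0.087). Of the reads of the 10 genes, counted as summed CPM, Scg2 made up 6.62% in the Input against 21.2%, 19.3% and 23.2% in IP 1, 2 and 3.

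The genes whose 3 log2 ratios of IP to Input lay nearest to those of Scg2 were Igsf3, Serpine2 and Gprasp1, with root-mean-square differences of 0.12, 0.18 and 0.18 among 10543 genes at a mean of at least 5 CPM. Igsf3, an immunoglobulin superfamily gene, had 23.7 CPM in Input RNA, against an IP mean of 109 ± 11.1 CPM (SD, n = 3; adjusted p = 0.312). Serpine2, a secreted protease inhibitor, was at 41.3 against 182 ± 10.6 CPM (adjusted p = 0.13), and Gprasp1, which sorts receptors to lysosomes, at 231 against 993 ± 49.99 CPM (adjusted p = 0.0107). Of these, Gprasp1 alone passed the threshold.

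Chgb encodes chromogranin B, a matrix protein of the vesicle core (Entrez 12653, chromosome 2, 132781278 to 132795079). It measured 339 CPM in Input RNA, against 174, 219 and 291 CPM in IP 1, 2 and 3. This was the lone member with every IP library below the Input, and IP 3 came closest to it. The mean in IP was 228 ± 58.8 CPM (SD, n = 3), and the log2 fold of -0.57 ± 0.42 (SE, adjusted p = 0.9999) had a 95% interval of -1.44 to 0.30. Its share of the members' summed CPM was 20.4% in the Input against 7.60%, 10.9% and 12.1% in IP. Within a library the ratio of Scg2 to Chgb, per kilobase of exon, was 0.354 in the Input against 3.05, 1.92 and 2.08 in IP, so the order of these 2 granins was turned in each IP library. On the log2 scale that ratio was -1.50 in the Input and 1.20 ± 0.36 in IP (SD, n = 3), and this difference, singled out after the values were seen, was not tested.

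Chga encodes chromogranin A, the founding granin of endocrine cells (Entrez 12652, chromosome 12, 102554969 to 102565028). Its level was 33.6 CPM in Input RNA, against 54.0, 71.2 and 30.8 CPM in IP 1, 2 and 3. IP 3 lay slightly below the Input and IP 2 highest, so the groups overlapped (log2 fold 0.63 ± 0.77, SE, adjusted p = 0.9999, 95% interval -0.99 to 2.25). Vgf encodes a granin-like protein induced by nerve growth factor, which is cut into several peptides (Entrez 381677, chromosome 5, 137026392 to 137033351). It measured 44.0 CPM in Input RNA, against 86.0, 86.0 and 85.4 CPM in IP 1, 2 and 3. The IP values nearly coincided, with a coefficient of variation of 0.348% over the 3 libraries, and the counting interval of a single library was wider (80.1 to 92.1 CPM in IP 2, exact Poisson, 95%, counting error only). Despite this the log2 fold of 0.96 ± 0.63 (SE) did not pass (adjusted p = 0.9999, 95% interval -0.36 to 2.28). The test takes each gene's error mostly from a spread shared with genes of like abundance (17.0 prior against 2 residual degrees of freedom).

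Scg3 encodes secretogranin III, which ties chromogranin A and other cargo to the vesicle membrane (Entrez 20255, chromosome 9, 75643189 to 75684056). It measured 170 CPM in Input RNA, against 326, 138 and 191 CPM in IP 1, 2 and 3. IP 1 was high and IP 2 below the Input (log2 fold 0.36 ± 0.50, SE, adjusted p = 0.9999), and without IP 1 the log2 fold was -0.07. Summed over the 5 granins, the level was 697 CPM in Input RNA, against 1129, 902 and 1155 CPM in the IP libraries. Without Scg2, the other 4 summed to 587 CPM in the Input against 641, 515 and 598 CPM in the IP libraries, so they lay on both sides of the Input.

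**Figure D2:**
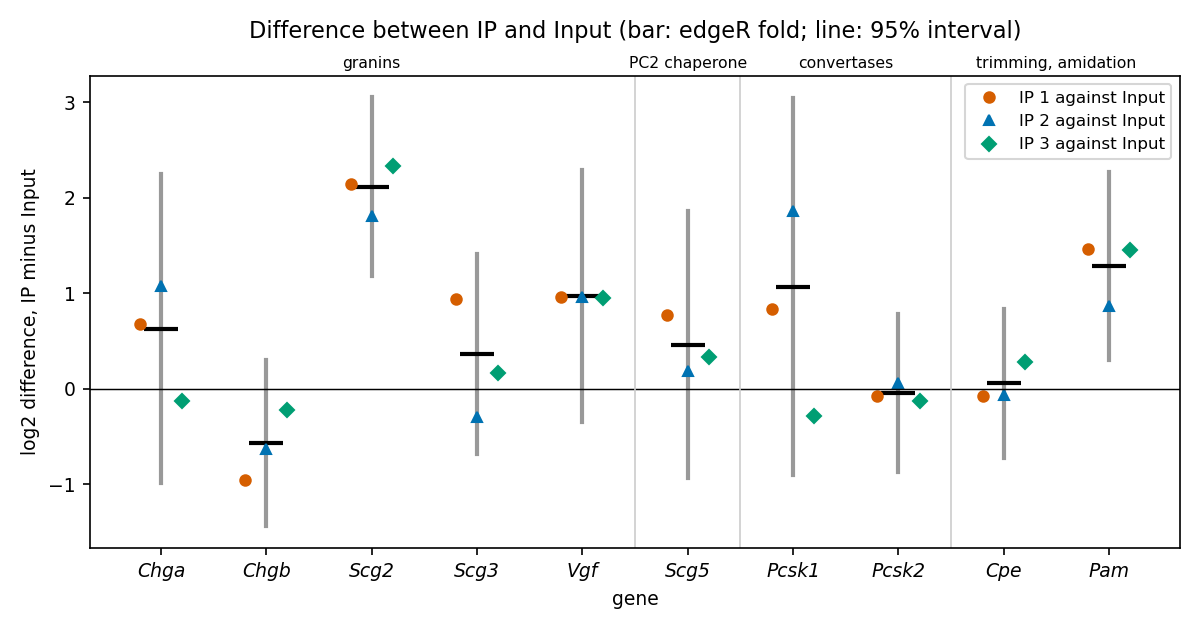
Log2 difference between IP and Input for each gene, with 1 symbol per IP library (log2 of CPM plus 0.5), the edgeR fold as a bar and its 95% interval as a line. The intervals of Scg2 (1.18 to 3.05) and Pam (0.30 to 2.27) lie above 0, and after adjustment over all genes Scg2 alone passed.

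Scg5 encodes 7B2, a small granin-like chaperone without which the convertase PC2 does not mature (Entrez 20394, chromosome 2, 113776362 to 113829121). It measured 47.6 CPM in Input RNA, against 81.6, 54.2 and 60.2 CPM in IP 1, 2 and 3. All 3 IP libraries lay above the Input, IP 2 by little (log2 fold 0.46 ± 0.67, SE, adjusted p = 0.9999). Without TMM, IP 2 lay below the Input for Scg5 (507 of 10031072 counts against 794 of 14474529). Pcsk2, the gene of PC2 itself (Entrez 18549, chromosome 2, 143546156 to 143816285), measured 313 CPM in Input RNA, against 296, 324 and 286 CPM in IP 1, 2 and 3. These values were close, with the Input between those of IP 1 and IP 2, and the log2 fold of -0.05 ± 0.39 (SE, adjusted p = 0.9999) had a 95% interval of -0.87 to 0.78, so a change of up to about that size in either direction could not be told from none. Of the exon bases of Pcsk2 4.54% overlap antisense genes, whose reads may not have been told apart.

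Pcsk1 encodes PC1/3, the convertase that makes the first cuts in many precursors (Entrez 18548, chromosome 13, 75089826 to 75134861). It measured 19.4 CPM in Input RNA, against 34.9, 71.6 and 15.8 CPM in IP 1, 2 and 3. IP 2 stood 4.54 times above IP 3, and IP 3 was below the Input, so no direction could be read (log2 fold 1.07 ± 0.94, SE, adjusted p = 0.9999). Its coefficient of variation over the IP libraries, 69.6%, was the largest among the members, and the median was 36.1% over 8890 genes with a mean of at least 10 CPM. Without IP 2 the log2 fold was 0.38. Chga was likewise highest in IP 2 and lowest in IP 3. IP 2 also had the highest summed level of endothelial and mural markers (802 CPM, against 273 in IP 1 and 374 in IP 3), of excitatory markers (6340, against 3387 and 5018) and of astrocyte markers (2832, against 1661 and 1816). The part of these cells in the values of Pcsk1 and Chga was not tested.

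Per kilobase of exon, Pcsk1 stood to Pcsk2 at 0.0877 in the Input against 0.166, 0.312 and 0.0778 in IP 1, 2 and 3. On the log2 scale that is -3.51 in the Input and -2.65 ± 1.003 in IP (SD, n = 3), a difference smaller than the spread between the IP libraries. By this measure Pcsk2 was the more abundant of the pair in each of the 4 libraries. For the chaperone Scg5 against Pcsk2 the ratio was 0.768 in the Input against 1.39, 0.843 and 1.06 in IP. Pcsk1n encodes proSAAS, a granin-like inhibitor of PC1/3, and measured 133 CPM in Input RNA, against 299, 314 and 278 CPM in IP 1, 2 and 3. All 3 IP libraries were at over 2 times the Input, close to each other, but the log2 fold of 1.16 did not pass (adjusted p = 0.749).

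Cpe encodes carboxypeptidase E, which trims basic residues after the convertases have cut (Entrez 12876, chromosome 8, 64592542 to 64693054). It measured 476 CPM in Input RNA, against 450, 454 and 577 CPM in IP 1, 2 and 3. The groups overlapped, and the log2 fold of 0.05 ± 0.37 (SE, adjusted p = 0.9999, 95% interval -0.72 to 0.83) turned to -0.22 with library totals, -0.16 with upper-quartile factors and -0.07 without IP 3. Pam encodes peptidylglycine alpha-amidating monooxygenase (Entrez 18484, chromosome 1, 97795114 to 98095646), and measured 111 CPM in Input RNA, against 305, 202 and 303 CPM in IP 1, 2 and 3. Each IP library was above the Input, IP 2 least, with a mean of 270 ± 58.8 CPM (SD, n = 3), 2.44 times the Input. The log2 fold of 1.29 ± 0.47 (SE) passed the threshold before adjustment but not after it (adjusted p = 0.681), which among 11 alternatives took values from 0.291 to 1. The summed endothelial and mural markers were highest in IP 2 (802 CPM), the IP library in which Pam was lowest, and their part in the values of Pam was not tested. Per kilobase, Pam stood to Cpe at 0.0511 in the Input against 0.149, 0.0976 and 0.115 in IP.

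Levels of different genes were compared per kilobase of merged exon. In the Input the order was Cpe (182 CPM per kilobase), Chgb (124), Scg3 (62.2), Scg2 (43.8), Pcsk2 (39.5), Scg5 (30.3), Vgf (14.8), Chga (12.2), Pam (9.31) and Pcsk1 (3.47), with no replicate to give a spread. In IP it was led by Scg2 (190 ± 33.9, SD, n = 3) and Cpe (189 ± 27.6), which did not differ beyond their spread. Chgb (83.3 ± 21.5) and Scg3 (79.8 ± 35.5) followed and overlapped, as did Scg5 (41.6 ± 9.19) and Pcsk2 (38.2 ± 2.50). Below them came Vgf (28.9 ± 0.10), then Pam (22.7 ± 4.94) and Chga (18.9 ± 7.36), which overlapped, and Pcsk1 (7.28 ± 5.07). Scg2 went from rank 4 in the Input to rank 1, 2 and 1 in IP 1, 2 and 3, and Vgf and Pcsk1 held their rank in all 4 libraries. Merged exons of Pam (11.9 kilobases) and Pcsk2 (7.91) join several annotated transcripts, so their values per kilobase may be too low.

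**Figure D3:**
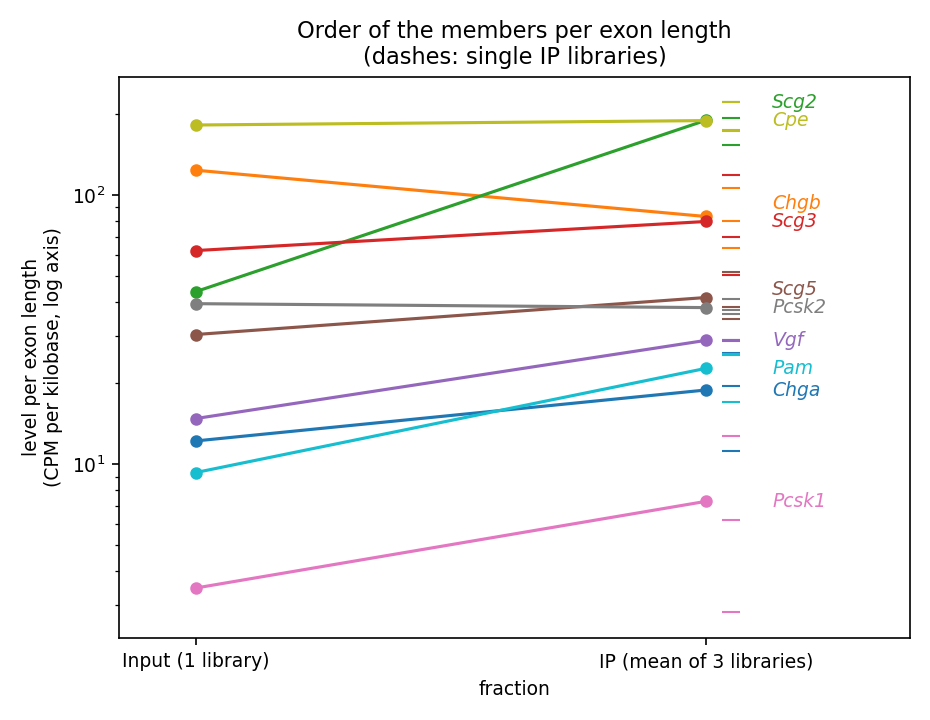
Level per kilobase of merged exon in the Input and as the mean of the 3 IP libraries (log axis), with a dash for each IP library. The line of Scg2 climbs from 43.8 to 190 and crosses those of Scg3 and Chgb, while that of Chgb goes from 124 to 83.3.

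In other genes of the regulated secretory pathway no change passed the test outside the precursors. Among 11 tested of 12 other convertases and processing proteases 0 were called, and the median log2 fold was 0.089. At an unadjusted p under 0.05 1 was higher (Pcsk1n) and 0 lower, against 3.2% and 1.23% of all genes tested. Cpd, a carboxypeptidase of the Golgi apparatus, was at 78.6 CPM in the Input against 54.0, 102 and 77.3 CPM in IP. Furin, the convertase of the constitutive pathway, measured 11.5 CPM in Input RNA, against 7.15, 10.7 and 5.78 CPM in IP 1, 2 and 3, and Cpz had 0 counts in all 4 libraries. Of 5 genes that supply amidation with copper and ascorbate 0 were called (0 at an unadjusted p, median -0.10). Among them the electron carrier Cyb561 measured 32.3 CPM in Input RNA, against 22.8, 31.8 and 35.8 CPM in IP 1, 2 and 3, and the ascorbate transporter Slc23a2 94.6 CPM, against 105, 97.3 and 117 CPM.

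Of 19 genes of dense-core vesicle biogenesis and sorting 0 were called, with a median of 0.36. At an unadjusted p 1 was higher (the sorting receptor Sorcs3, log2 fold 1.47), against 3.2% of all genes. Ptprn2, a phosphatase-like protein of the vesicle membrane, measured 266 CPM in Input RNA, against 347, 419 and 565 CPM in IP 1, 2 and 3 (log2 fold 0.74, adjusted p = 0.9999), and Rab2a, a small GTPase of the secretory path, 556 CPM, against 634, 555 and 549 CPM. Of 21 tested genes of vesicle transport and release 0 were called, with a median of 0.42. At an unadjusted p 3 were higher, against 3.2% of all genes. These were Kif1a, the motor that carries dense-core vesicles (1050 CPM in the Input, 1507, 3230 and 3649 in IP, log2 fold 1.41), the vesicle GTPase Rab3c (848 and 2070, 1515 and 1805, log2 fold 1.08) and its partner Rph3a (774 and 1250, 1678 and 1640, log2 fold 0.98). Without IP 1 all 3 were called, but calls over all genes also rose, from 60 to 185 higher (14332 genes tested). By DESeq2 and by limma-voom 0 genes were called in these 4 lists. Of 16 tested genes of peptide breakdown 0 were called by any of the 3 tools (0 at an unadjusted p, median 0.18), with the aminopeptidases Lnpep at 153 CPM in the Input against 253, 199 and 176 CPM in IP and Npepps at 111 and 178, 139 and 102 CPM.

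**Figure D4:**
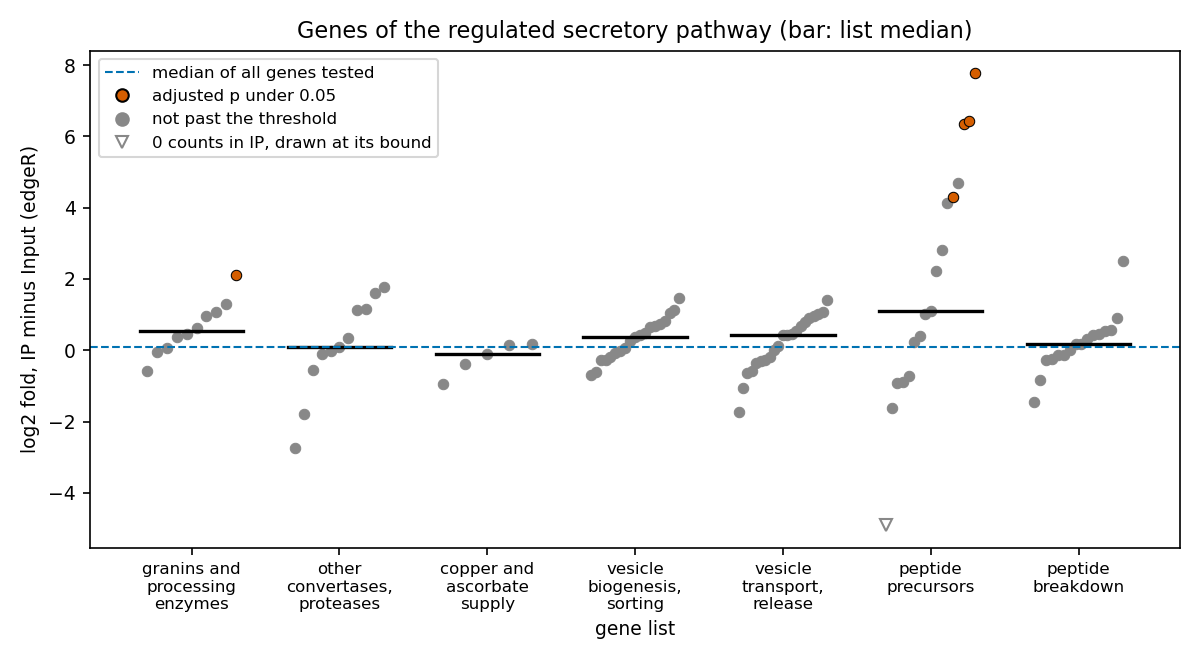
Log2 fold of IP over Input for each tested gene of 7 lists, with the list median as a bar and the median of all genes tested (0.083) as a dashed line. Calls lie in the precursors (4) and among the granins and processing enzymes (1), and the open triangle is Cartpt, which had 0 counts in IP.

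The precursors on which these enzymes act are given beside them, with no test of a difference between the groups of genes. Of 17 tested peptide precursors 4 rose (Crh, Vip, Tac2 and Penk) and 0 fell, against 0.41% and 0.0478% of all genes tested. The list was chosen with earlier results of these data known, and the Crh locus drives Cre. With DESeq2 7 rose and 0 fell (1.15% and 0.0888% of all genes). With limma-voom, which did not call Crh, 3 rose and 0 fell (0.253% and 0.0957%). The median log2 fold was 1.11, and stayed so with Cartpt (at least 29.8-fold lower in IP, against 3 counts over the group) set to its bound. Summed over the list of 20, precursor RNA measured 951 CPM in Input RNA, against 7364, 4801 and 4978 CPM in IP 1, 2 and 3. The sum was 6.01 times the Input on average, and Vip alone made up 3.55% of it in the Input and 45.3% to 51.6% in IP. The 10 granin and enzyme genes together measured 1663 CPM in Input RNA, against 2297, 2008 and 2397 CPM in IP 1, 2 and 3, 1.34 times the Input on average. Without Scg2 the remaining 9 summed to 1553 CPM in the Input against 1809, 1621 and 1840 CPM in IP. Precursor CPM per CPM of granin and enzyme RNA was therefore 0.572 in the Input against 3.21, 2.39 and 2.08 in IP, a mean of 2.56 ± 0.58 (SD, n = 3). All 3 IP libraries lay above the Input in both sums of TMM-scaled CPM, and neither sum was tested. As a share of all counts, without TMM, the 10 genes held 0.192% in the Input. In IP 1, 2 and 3 the share was 0.224%, 0.187% and 0.229%, so IP 2 was slightly below the Input.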

How the data were processed

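Unnormalised gene counts were deposited by the authors, 1 table per library, with genes listed by Entrez identifier and symbol (per the file headers). Per the submitters' processing notes STAR 2.0.0e, HTSeq and mm10 were used, but the deposited tables are labelled with another tool, Subread, so the counter is not settled. The annotation, the strand of counting and the treatment of multiply mapped reads are not given in the sources used here, so reads of overlapping or antisense genes may not be told apart. The Input held 14474529 counts, and IP 1, 2 and 3 held 23548375, 10031072 and 12150980. Of the 24100 genes 9 had no symbol (at most 0.0221% of counts) and were kept by identifier.

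In R 4.3.3, genes were filtered by filterByExpr of edgeR 4.0.16 (minimum count 10), scaled by TMM, and tested by the quasi-likelihood F test, two-sided, with Benjamini-Hochberg adjustment over 14636 genes. SE is the log2 fold over the root of F, and 95% intervals use it with the residual (2) and prior (17.0) degrees of freedom. The lone Input was assumed to vary like the IP libraries. DESeq2 1.42.0, limma 3.58.1 (voom), other scalings, filters and priors, and leaving out each IP library were alternatives. The fit was tested on simulated data. No pair of libraries was a copy (chi-square per degree of freedom at least 84.7).

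Members, lists and markers were chosen with earlier results of these data known. Genes named were all members, Crh, called and most abundant list members, and the 3 genes nearest to a called member. Furin, Cpz, Cartpt, the genes past an unadjusted p and some single markers were chosen after their values were seen. Marker lists are given as sums. Exon lengths came from GENCODE M21 (GRCm38) and promoters from RefSeq.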

Additional observations from a re-analysis of the deposited data

How the results depend on the processing

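No paired analysis was possible because there is 1 Input library, so the groups share fewer than 2 replicate numbers. The count of members called higher, 1, was 0 with upper-quartile factors, library totals alone, a mean of at least 5 CPM, limma-voom and an adjusted p under 0.01, and 0 to 1 when each IP library was left out (0 without IP 3). The log2 fold of Scg2 was then 1.90 with upper-quartile factors, 1.84 with library totals, 2.01 with a mean of at least 5 CPM, 2.12 with limma-voom, and 1.99 to 2.24 with 1 IP library left out. The cause was not tested. Signs turned for Scg3 (-0.070 without IP 1, range to 0.60 over the libraries left out) and Cpe (-0.16 with upper-quartile factors, -0.22 with library totals, -0.052 at the 5 CPM minimum, and -0.073 to 0.11 with 1 IP library left out). These scalings moved the median of all genes by -0.22 and -0.27 (log2). The other 8 members kept their direction under all 11 alternatives. Of all genes, 60 higher and 7 lower became 94 and 14 without a low-count filter, 169 and 13 with DESeq2, 37 and 14 with limma-voom, 35 and 4 at an adjusted p under 0.01, and 51 and 15 with upper-quartile factors, and 50 and 15 with library totals. With 1 IP library left out they ran from 82 to 185 higher and from 8 to 25 lower, most in both directions without IP 1. Calls in vesicle transport and release ran from 0 to 3 (3 without IP 1), and precursors called higher were 7 with DESeq2. With library totals the members' sum was 1918 CPM in the Input and 2133 CPM on average in IP. With 1 Input and 3 IP libraries, the number of libraries limits precision.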
